A study of Homo sapiens with 40 samples.

Results

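Loss of CDC73 and induction of MYC were combined in U2OS cells, a human osteosarcoma line, and the genes described here are those whose response to MYC induction differed between CDC73-depleted and control cells. The 24 libraries used, of 40 in the series, form 6 groups of 4. Every cell carried a doxycycline-inducible MYC gene (the MYC TetOn system) and a pGIPZ hairpin vector, under selection with puromycin at 0.2 µg/ml. Control cells carried the hairpin labelled shNTC, and depleted cells carried 1 of 2 hairpins against CDC73, labelled shCDC73#3 and shCDC73#4. The treatment lasted 24 h, with doxycycline (Dox, 1 µg/ml) in one arm and ethanol (EtOH) in the other. No group received Dox without the inducible MYC gene, so effects of Dox itself and of MYC cannot be told apart. Total RNA was sequenced and the deposited values are read counts per gene. The labels give no clone or pool for the cell line, and they number the replicates without saying whether these were separate cultures, so p-values measure a spread between libraries that may be partly technical.

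MYC is a transcription factor that binds DNA as a dimer with MAX and, when overexpressed, raises genes of ribosome and nucleotide production while lowering others, among them genes of adhesion and matrix. CDC73 is a subunit of the PAF1 complex, a partner of RNA polymerase II during elongation that is needed for histone marks laid down during transcription. The complex has been linked to MYC through direct contact, and CDC73 itself is known as the tumour suppressor parafibromin. The comparison asks which responses to Dox, given to induce MYC, depend on CDC73 being present at its usual level.

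For each gene, the response is the log2 fold change of Dox against EtOH, estimated with its standard error (SE) from the counts. The difference is the mean response with the 2 CDC73 hairpins minus the response in shNTC cells. A gene is called where the difference has a Benjamini-Hochberg adjusted p under 0.05 in the quasi-likelihood test of edgeR, over the 12557 genes tested. Levels are given as CPM, a gene's counts scaled to the size of the library, and "rose" and "fell" are used only for changes that passed this test.

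The 24 libraries held 877323 to 1532617 counts, with a median of 1213230.5, so a count of 3 is worth between 1.96 and 3.42 CPM, depending on the library. CDC73 stood at 22.6% and 23.0% of the shNTC level with hairpins 3 and 4 in EtOH and at 22.3% and 32.4% in Dox. Blood cell markers all fell below the low-count filter, 7 to 10 of their 14 genes were at 0 in all libraries of a group, and they summed to between 2.30 and 11.4 CPM per library. Epithelial markers summed to between 208 and 543 CPM, and 0 of the 6 that were tested were called. Osteoblast and mesenchymal markers, the type of the parent tumour, summed to between 938 and 2143 CPM, with 2 to 5 of their 19 genes at 0 in all libraries of a group. In bulk RNA a change in the share of cells and a change in RNA per cell cannot be told apart. Libraries EtOH shCDC73 hairpin 4 replicates 1 and 3 stood apart. Regressed on log2 transcript length, their log2 levels relative to the other libraries had slopes of -0.120 and -0.163, against -0.055 to 0.049 in the remaining 22, so short transcripts were read more often in that pair. The main counts of called genes are given with and without them. Values of gene lists and of hairpin 4 alone are given only with them.

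Few genes were called. The difference passed for 59 genes, 0.470% of those tested, with a positive difference for 40 and a negative difference for 19, and another 36 genes had an adjusted p between 0.05 and 0.1. At an unadjusted p under 0.05 there were 1181 genes, 9.41% of those tested. By comparison, Dox changed 2187 genes in shNTC cells (17.4%) and 2202 in shCDC73 cells (17.5%). The size of the called differences ran from 0.37 to 4.05 with a median of 0.75 on the log2 scale. The largest adjusted p among called genes was 0.0454 and the smallest among the others was 0.0502. The count rests on the libraries fitted together: 27 genes were called when the 24 libraries were fitted without the shCTR9 libraries, all of them among the 59, and between 24 and 76 when 1 of the 24 libraries was left out. Libraries whose absence moved the count by over 1.5 times were Dox shNTC replicates 2, 3 and 4 (27, 39 and 29 genes), EtOH shNTC replicates 2, 3 and 4 (37, 27 and 24 genes), Dox shCDC73 hairpin 3 replicate 4 (39 genes), Dox shCDC73 hairpin 4 replicate 4 (37 genes) and EtOH shCDC73 hairpin 4 replicate 1 (38 genes). Without the pair rich in short transcripts 65 genes were called, of which 43 were among the 59. The calls that ended there were those for ITGA3, RB1CC1, SEMA3C, DPYSL2, OGDH, SDC1, BMP2, MAX, EMP1, NUSAP1, TUFT1, CDK20, GTPBP6, MAFF, HEXIM1 and TGM2. Calls that ended with only the 24 libraries included those for ASF1B, NUSAP1, TUBB4B, LOXL2, CAV1, ELFN1, MMP14, MBOAT7, OGDH, ITGA3 and TGM2. Those for SEMA3C, EMP1, ERBIN, DPYSL2, SERPINH1, RB1CC1, BMP2, CDK20, SFRP1, SLC6A15, GTPBP6 and ENSG00000236453 ended in that fit too. So did those for MAX, ATF3, MAFF, HEXIM1, SGK1, SDC1, TUFT1, ATG12 and TRIM48.

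By whether the response itself passed in each kind of cell, the 59 genes fall into 4 classes. A response was lost for 25 genes, which passed in shNTC cells but not in shCDC73 cells, with 9 of them higher with Dox in shNTC cells and 16 lower. It was reversed for 8 genes, which passed in both with opposite signs. It was gained for 7 genes, which passed only in shCDC73 cells. It was smaller for 19 genes, which passed in both with the same sign. The classes rest on the mean of both hairpins, and the hairpins differ within them. Of the 25 lost responses, 1 passed with hairpin 3 alone, with the opposite sign to shNTC cells, and 8 passed with hairpin 4 alone, 7 of them with the same sign as in shNTC cells. Of the 8 reversed responses, the opposite sign passed for 7 with hairpin 3 alone and for 0 with hairpin 4 alone. For 0 genes was a larger response of the same sign called by edgeR, and DESeq2 called 1. In all 59 the difference had the opposite sign to the response in shNTC cells. The shNTC response is part of the difference that chose these genes, so nothing is read from that direction. The difference had the same sign with each hairpin in all 59, with both hairpins sharing the shNTC libraries. The mean over both hairpins chose these genes, so nothing is read from that sign either.

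**Figure D1:**
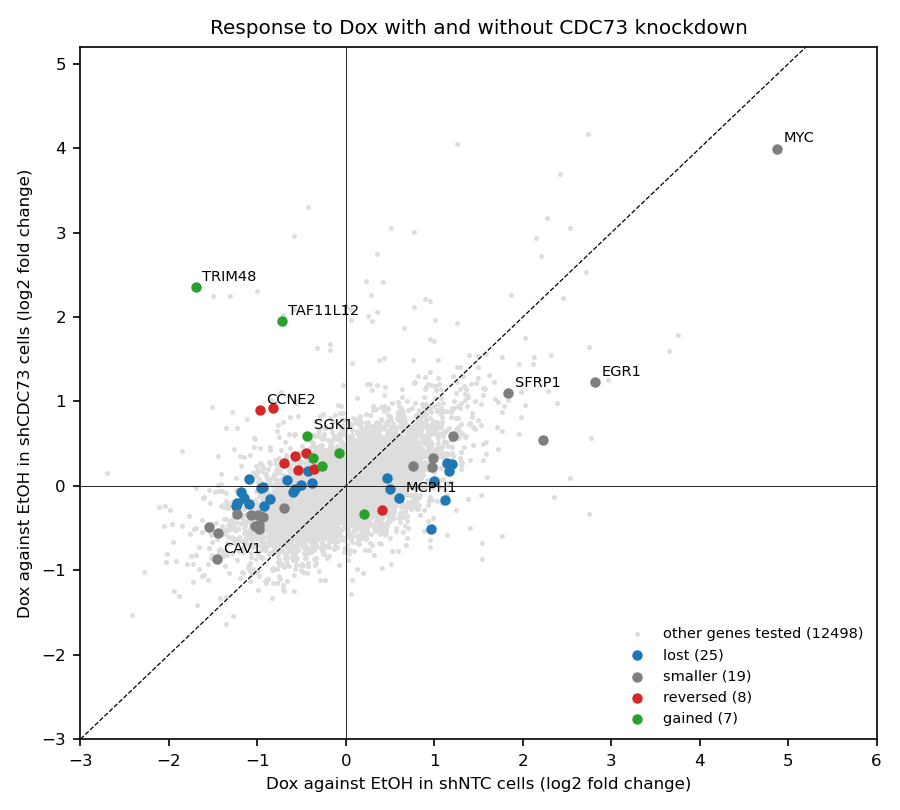
Response to Dox (log2 fold change, Dox against EtOH) in shNTC cells on the horizontal axis and in shCDC73 cells, averaged over 2 hairpins, on the vertical axis, with 1 point per gene tested and the called genes coloured by class. The dashed line marks equal responses, 4 genes lie outside the axes, and the 59 called genes lie on the side of the line nearer to or past 0 in shCDC73 cells.

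Calls that did not hang on 1 library numbered 17, with 7 lost, 6 reversed and 4 smaller responses. Among them were MYC, EGR1, PLK2, RRM2, DHRS2, FAM83D, LFNG, HYCC1, IGHMBP2, SMAD6, MCPH1, ATP6V1C1, FSTL1, ZFP36L1, MYBL1 and LINC00452. All 17 passed in each of the 24 fits that left out 1 library, in the fit of 24 libraries, without the pair rich in short transcripts, and in DESeq2. The other 42 calls ended in 1 or more of the fits that left out 1 library. Of the 17, only MYC held in every setting tried. With hairpin 4 alone the calls for FAM83D, LFNG, IGHMBP2, SMAD6 and MCPH1 were among those that ended. Leaving out a replicate number from all groups ended calls too, among them those for these 5 genes and HYCC1. No sign changed in any setting tried, but each setting reused libraries that chose the genes, so nothing is read from that.

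MYC (ENSG00000136997) itself was the gene with the smallest adjusted p, and the counts do not separate the induced copy from the endogenous gene. In shNTC cells its level was 566, 568, 459 and 441 CPM in EtOH and 15017, 15856, 14548 and 14360.4 CPM in Dox, in the order of replicates 1 to 4. With hairpin 3 it went from 651, 727, 596 and 689 CPM to 10516, 10382, 11049.8 and 10951 CPM, and with hairpin 4 from 523, 554, 535 and 482 CPM to 7854, 8153, 8518 and 8641 CPM. Every Dox library lay far above every EtOH library, and every shCDC73 library in Dox lay below every shNTC library in Dox. In EtOH every hairpin 3 library lay above every shNTC library, and the hairpin 4 libraries overlapped those of shNTC cells. Over both hairpins MYC was higher than in shNTC cells in EtOH by 0.22 ± 0.07 (edgeR adjusted p = 0.00593). MYC rose by 4.88 ± 0.09 in shNTC cells and by 4.00 ± 0.06 in shCDC73 cells, a difference of -0.88 ± 0.09 (edgeR adjusted p = 9.05e-09). In Dox the level with hairpin 3 was 71.8% of that in shNTC cells, and with hairpin 4 it was 55.5%. The difference was -0.87 with hairpin 3 alone and -0.89 with hairpin 4 alone, and it was the one call that held in every setting. MYC was thus induced to a lower level in the depleted cells, and the part of that in the other differences was not tested.

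Of 11 tested members of the MYC network, MAX was the other one called, beside 0.470% of all genes tested. MAX, the dimer partner of MYC, stood at 85.3, 92.7, 89.4 and 88.1 CPM in EtOH and 149.5, 146, 139 and 168 CPM in Dox in shNTC cells. With hairpin 3 the libraries ran from 138 to 173 CPM in EtOH and from 171 to 208 CPM in Dox, and with hairpin 4 from 107 to 142 CPM and from 134 to 154 CPM. The shNTC groups were separate, whereas with each hairpin the EtOH and Dox libraries overlapped, and the EtOH level with CDC73 hairpins was already above that of shNTC cells. MAX rose by 0.76 ± 0.11 in shNTC cells and by 0.24 ± 0.07 in shCDC73 cells (difference -0.52 ± 0.13, edgeR adjusted p = 0.0454). Its call ended in 18 of the 24 fits that left out 1 library (largest adjusted p = 0.167) and with only the 24 libraries. Over the network list the median response was 0.56 in shNTC cells and 0.24 in shCDC73 cells, beside -0.01 and -0.02 over all genes tested.

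Immediate early genes are switched on within minutes of a growth or stress signal. EGR1 (ENSG00000120738), a zinc finger factor of this kind, stood at 27.9, 29.9, 13.1 and 24.3 CPM in EtOH and 163, 195, 126 and 176 CPM in Dox in shNTC cells. The hairpin 3 libraries stood at 66.97, 71.6, 46.5 and 66.8 CPM and then 103, 122, 119.8 and 143 CPM, and those of hairpin 4 at 32.1, 42.8, 25.9 and 31.8 CPM and then 98.6, 93.5, 84.3 and 102 CPM. Dox separated the libraries in all 3 kinds of cell, but from a higher EtOH level with hairpin 3. EGR1 rose by 2.82 ± 0.18 in shNTC cells and by 1.23 ± 0.12 in shCDC73 cells, with a difference of -1.59 ± 0.22 (edgeR adjusted p = 6.81e-06). The depleted cells had more EGR1 than shNTC cells in EtOH (0.97 ± 0.18, edgeR adjusted p = 1.93e-05) and less in Dox (-0.62 ± 0.12, edgeR adjusted p = 5.96e-05).

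ATF3, a stress-induced factor of the ATF family, rose by 0.98 ± 0.13 in shNTC cells and by 0.33 ± 0.08 in shCDC73 cells (difference -0.65 ± 0.15, edgeR adjusted p = 0.0345). Its level was 37.7 to 50.5 CPM in EtOH and 75.5 to 98.5 CPM in Dox in shNTC cells. In shCDC73 cells it was already at 155 to 179 CPM with hairpin 3 and 89.3 to 113 CPM with hairpin 4 in EtOH, above every shNTC library of that treatment. The call for ATF3 ended in 7 of the 24 fits that left out 1 library (largest adjusted p = 0.135). MAFF, a small MAF factor that lacks an activation domain, rose by 1.20 ± 0.19 in shNTC cells, while its response in shCDC73 cells was 0.26 ± 0.11 (edgeR adjusted p = 0.114) and the difference was -0.94 ± 0.22 (edgeR adjusted p = 0.0345). This call ended in 10 of the 24 fits (largest adjusted p = 0.161) and without the pair rich in short transcripts. EGR1 and ATF3 were the called ones among 23 tested members of the immediate early list, beside 0.470% of all genes tested. The median response of that list was 0.06 in both kinds of cell. In the list of ATF4 targets, genes of the amino acid stress response, ATF3 was called among 29 tested, with a median response of 0.32 in shNTC cells and 0.16 in shCDC73 cells.

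The promoters of EGR1, of MAFF and of ASF1B, a gene described below, are printed because each holds a motif that names a class of regulated gene. They are RefSeq sequences of GRCh38.p14, from 250 bases before to 50 bases after the gene start, on the plus strand of chr5:138465229-138465528 and chr22:38201744-38202043 and the minus strand of chr19:14136540-14136839. The counts were made on hg19 and no peak or reporter was measured here. Capitals mark, in EGR1, the CArG box, which serum response factor binds, searched in a single form, and the CHR element TTTGAA of cell cycle genes, here on the other strand. In MAFF they mark the E-box CACGTG, the site of MYC and MAX dimers, and the cyclic AMP response element TGACGTCA, and in ASF1B the CHR element.
EGR1: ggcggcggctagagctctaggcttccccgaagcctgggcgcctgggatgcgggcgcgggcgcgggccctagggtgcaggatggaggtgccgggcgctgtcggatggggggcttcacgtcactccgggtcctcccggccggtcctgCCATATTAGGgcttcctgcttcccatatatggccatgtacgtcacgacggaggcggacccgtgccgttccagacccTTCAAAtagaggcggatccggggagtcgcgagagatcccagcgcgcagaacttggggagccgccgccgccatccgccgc
MAFF: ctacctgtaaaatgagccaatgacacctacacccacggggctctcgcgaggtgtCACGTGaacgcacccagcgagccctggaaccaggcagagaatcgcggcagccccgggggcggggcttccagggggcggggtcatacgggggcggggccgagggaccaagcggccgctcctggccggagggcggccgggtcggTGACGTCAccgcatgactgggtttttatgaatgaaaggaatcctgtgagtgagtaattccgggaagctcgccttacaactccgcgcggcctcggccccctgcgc
ASF1B: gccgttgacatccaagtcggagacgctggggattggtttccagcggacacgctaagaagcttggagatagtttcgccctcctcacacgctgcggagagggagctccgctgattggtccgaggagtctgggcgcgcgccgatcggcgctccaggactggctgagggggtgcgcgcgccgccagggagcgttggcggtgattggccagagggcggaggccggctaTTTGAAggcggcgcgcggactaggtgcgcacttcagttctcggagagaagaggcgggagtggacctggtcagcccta
The marked CArG box starts 105 bases before the start of EGR1, and its exact form stands in 0.0366% of 27305 promoters of that length. Other forms of the box were not searched, so they are not in that share and stand unmarked in the printed sequences. In MAFF the E-box starts 196 bases and the response element 54 bases before the gene start. These motifs stand in 7.43% and 1.98% of all promoters, and in 10.4% and 3.50% of those of genes tested. In ASF1B the CHR element starts 27 bases before the gene start. It stands in 15.4% of all promoters and in 9.61% of those of genes tested. Each motif was searched on both strands. RefSeq promoters were at hand for 38 of the 59 genes, 64.4%, under the 80% needed, so a comparison of motif shares is void.

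Among the called genes with a lost or reversed fall, 7 are known for roles in DNA replication, cell proliferation or division: RRM2, MYBL1, FAM83D, CCNE2, ASF1B, NUSAP1 and TUBB4B. They were brought together after the calls were seen, and most genes on the lists for these processes were not called. RRM2 (ENSG00000171848), the small subunit of ribonucleotide reductase that makes deoxynucleotides, stood at 534, 450.3, 488 and 453 CPM in EtOH and 290.4, 308, 287 and 325 CPM in Dox in shNTC cells. Cells with hairpin 3 had 590.2, 586, 617 and 635 CPM and then 639, 632, 645 and 684 CPM, and those with hairpin 4 had 691, 606, 628 and 638 CPM and then 668, 657, 703 and 603 CPM. The fall separated the shNTC libraries, the EtOH and Dox libraries overlapped with each hairpin, and every shCDC73 library lay above every shNTC library of its treatment. RRM2 fell by 0.67 ± 0.08 in shNTC cells, against 0.07 ± 0.05 in shCDC73 cells (edgeR adjusted p = 0.412), and the difference was 0.74 ± 0.09 (edgeR adjusted p = 1.00e-06). It passed with each hairpin alone, at 0.77 and 0.70.

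MYBL1 (A-MYB, ENSG00000185697), a transcription factor of proliferating cells, stood at 74.3, 82.7, 68.99 and 83.9 CPM in EtOH and 39.5, 46.4, 39.2 and 44.9 CPM in Dox in shNTC cells. With hairpin 3 the libraries lay at 68.3 to 83.9 CPM in EtOH and 66.6 to 86.04 CPM in Dox, and with hairpin 4 at 65.8 to 80.7 CPM and 52.7 to 62.9 CPM. In Dox every shCDC73 library stood above every shNTC library, while in EtOH they overlapped. With hairpin 4 every Dox library lay below every EtOH library, with a response of -0.26 that did not pass (edgeR adjusted p = 0.134), and with hairpin 3 they overlapped. The response was -0.86 ± 0.12 in shNTC cells and -0.15 ± 0.08 in shCDC73 cells, and the difference was 0.71 ± 0.14 (edgeR adjusted p = 0.00880). FAM83D (ENSG00000101447), a protein of the mitotic spindle, ran from 156 to 187 CPM in EtOH and from 133 to 143 CPM in Dox in shNTC cells, from 129 to 155 CPM and from 176 to 194 CPM with hairpin 3, and from 150.3 to 173 CPM and from 156 to 176 CPM with hairpin 4. It fell by 0.35 ± 0.08 in shNTC cells and rose by 0.20 ± 0.06 in shCDC73 cells (difference 0.55 ± 0.10, edgeR adjusted p = 0.00236). That rise came with hairpin 3, at 0.35, against 0.04 with hairpin 4 (edgeR adjusted p = 0.791).

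Of the 7, those with less stable calls were CCNE2, ASF1B, NUSAP1 and TUBB4B. With only the 24 libraries the calls for ASF1B, NUSAP1 and TUBB4B ended. CCNE2 (cyclin E2, which drives entry into S phase) fell by 0.97 ± 0.35 in shNTC cells and rose by 0.89 ± 0.22 in shCDC73 cells, at low counts. It stood at 9.29, 20.7, 8.54 and 5.87 CPM in EtOH and 7.91, 4.07, 5.60 and 4.72 CPM in Dox in shNTC cells, which overlap, and reached 17.4 to 23.8 CPM with hairpin 3 and 9.35 to 18.6 CPM with hairpin 4 in Dox. Its difference of 1.86 ± 0.41 (edgeR adjusted p = 0.0192) ended without Dox shNTC replicate 2 (adjusted p = 0.0787), Dox shNTC replicate 4 (adjusted p = 0.0546) or EtOH shNTC replicate 2 (adjusted p = 0.180). ASF1B, a histone chaperone of replicating chromatin, fell by 1.10 ± 0.16 in shNTC cells, against -0.21 ± 0.10 in shCDC73 cells. Its difference of 0.88 ± 0.19 (edgeR adjusted p = 0.0175) ended without Dox shNTC replicate 2 (adjusted p = 0.0873), Dox shNTC replicate 4 (adjusted p = 0.0732) or EtOH shNTC replicate 4 (adjusted p = 0.0753). NUSAP1, which binds spindle microtubules, fell by 0.60 ± 0.10 in shNTC cells, against -0.08 ± 0.07 in shCDC73 cells, and the difference of 0.52 ± 0.12 (edgeR adjusted p = 0.0251) ended without Dox shCDC73 hairpin 3 replicate 4 (adjusted p = 0.0543), Dox shNTC replicate 2 (adjusted p = 0.0917), Dox shNTC replicate 4 (adjusted p = 0.0546), EtOH shNTC replicate 2 (adjusted p = 0.0532) or EtOH shNTC replicate 4 (adjusted p = 0.1005). TUBB4B, a beta tubulin, fell by 0.39 ± 0.08 in shNTC cells, against 0.04 ± 0.05 in shCDC73 cells, and the difference of 0.43 ± 0.09 (edgeR adjusted p = 0.0176) ended without Dox shNTC replicate 3 (adjusted p = 0.0628), Dox shNTC replicate 4 (adjusted p = 0.0546) or EtOH shNTC replicate 4 (adjusted p = 0.0656).

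Of 44 tested genes on the list of DNA replication and E2F targets, 3 were called (RRM2, CCNE2 and ASF1B), beside 0.470% of all genes tested. On that list 11 fell with Dox in shNTC cells (25%) and 2 in shCDC73 cells (4.55%), beside 8.93% and 8.24% of all genes tested. Its members that rose numbered 2 in shNTC cells (4.55%) and 7 in shCDC73 cells (15.9%), beside 8.49% and 9.29% of all genes tested. The median response of that list was -0.15 in shNTC cells and -0.07 in shCDC73 cells. NUSAP1 was the one member called among 48 on the list of G2 and M phase genes. Of the 48, 30 fell with Dox in shNTC cells and 12 in shCDC73 cells (62.5% and 25%). Its median response was -0.39 in shNTC cells and -0.17 in shCDC73 cells, and its median difference was 0.21 beside -0.01 over all genes tested. TOP2A, for example, fell by 0.66 ± 0.08 in shNTC cells and fell by 0.34 ± 0.06 in shCDC73 cells, with a difference of 0.32 ± 0.10 that did not pass (edgeR adjusted p = 0.145). The summed level of the 48 genes was 8510.1 to 8682 CPM in EtOH and 6574 to 6909.9 CPM in Dox in shNTC cells. With hairpin 3 it was already lower in EtOH, at 7186 to 7587 CPM, and 6576 to 6740.3 CPM in Dox. With hairpin 4 it was 6952 to 7267 CPM and 6536 to 6654 CPM, so the 3 kinds of cell reached a like level in Dox.

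**Figure D2:**
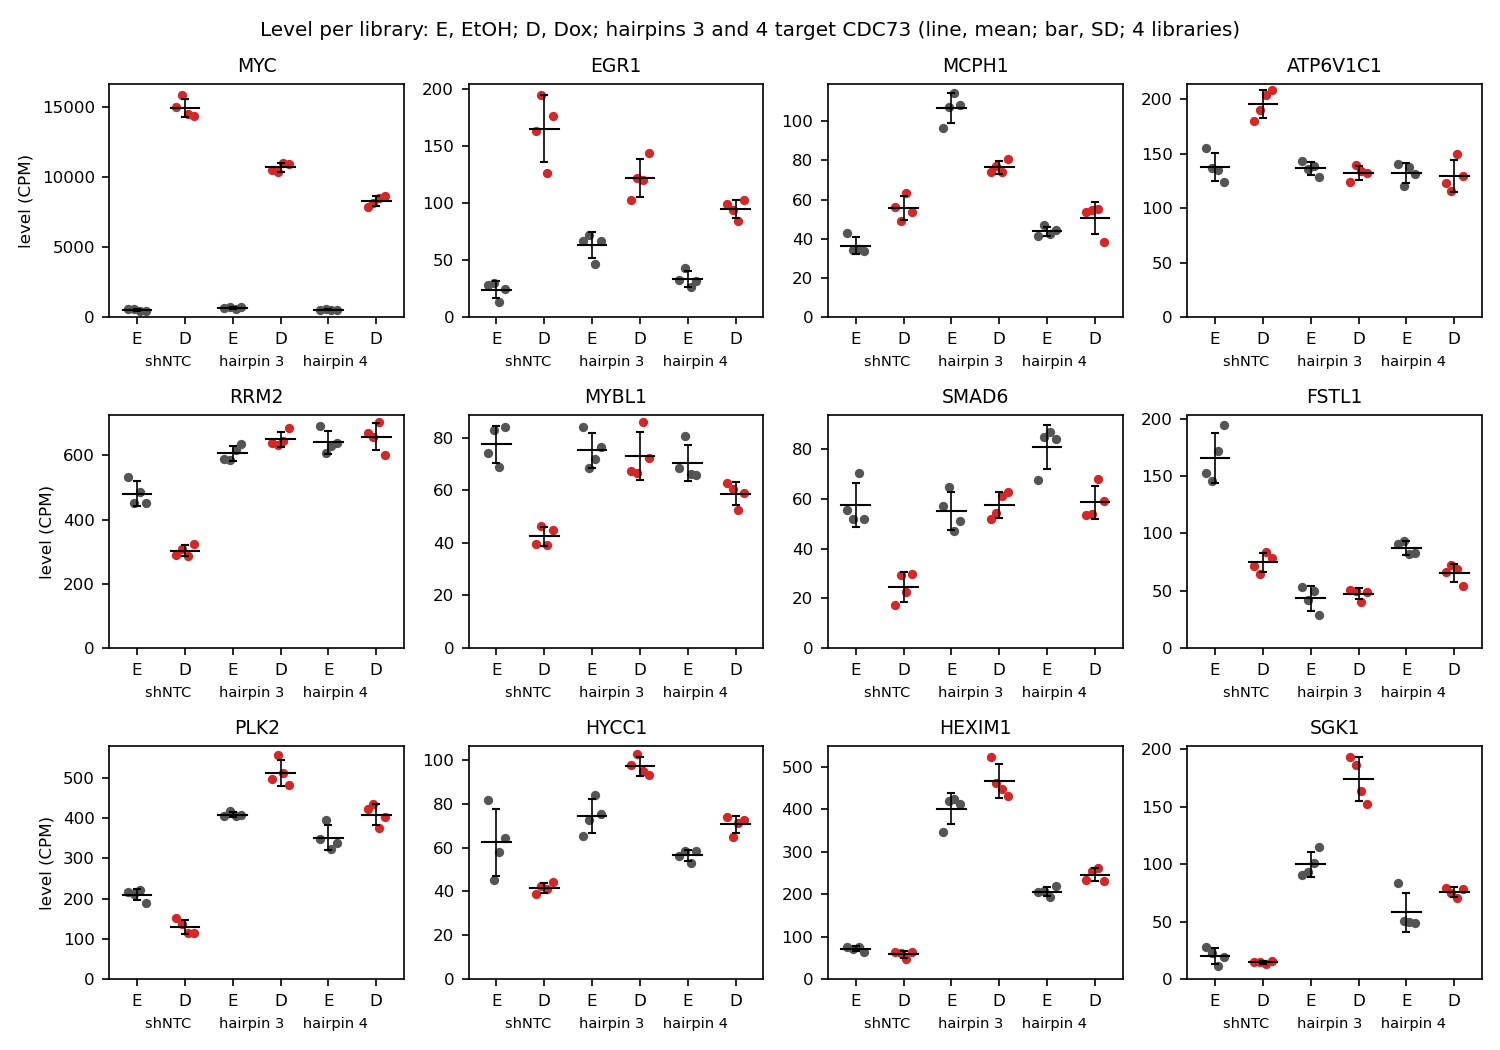
Level in CPM of 12 genes in each of the 24 libraries, by hairpin (shNTC, and hairpins 3 and 4 against CDC73) and treatment (E, EtOH; D, Dox), with the mean as a line and the SD of 4 libraries as a bar. MYC and EGR1 rise in every kind of cell, RRM2, MYBL1 and SMAD6 are lowest in the Dox shNTC libraries, and HEXIM1 and SGK1 stand far above the shNTC libraries with each CDC73 hairpin.

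Other called genes with a lost or smaller fall have known roles in matrix, adhesion, the cell surface, signalling or RNA decay, and they too were brought together after the calls were seen. FSTL1 (ENSG00000163430), a secreted glycoprotein of connective tissue, stood at 153, 146, 171 and 195 CPM in EtOH and 71.9, 64.3, 83.97 and 78.7 CPM in Dox in shNTC cells. Hairpin 3 cells showed 53.6, 41.6, 49.4 and 28.6 CPM and then 50.9, 50.2, 40.3 and 48.7 CPM, and hairpin 4 cells 91.1, 93.3, 81.9 and 82.8 CPM and then 66.3, 72.7, 69.1 and 54.1 CPM. Loss of CDC73 lowered it in EtOH below every shNTC library (-1.43 ± 0.10, edgeR adjusted p = 2.59e-16), and with hairpin 3 the EtOH and Dox libraries overlapped. With hairpin 4 every Dox library lay below every EtOH library, and FSTL1 fell by 0.42 (edgeR adjusted p = 0.0261). The response was -1.15 ± 0.12 in shNTC cells and -0.14 ± 0.10 in shCDC73 cells, with a difference of 1.02 ± 0.16 (edgeR adjusted p = 7.19e-05). SMAD6 (ENSG00000137834), an inhibitor of BMP signalling, stood at 55.7, 52.1, 70.3 and 52.00 CPM in EtOH and 17.3, 29.3, 22.4 and 29.9 CPM in Dox in shNTC cells. It stood at 47.2 to 64.9 CPM and 51.8 to 62.6 CPM with hairpin 3 and at 67.7 to 87.1 CPM and 53.6 to 67.9 CPM with hairpin 4. The shCDC73 libraries in Dox all lay above those of shNTC cells, and the EtOH and Dox libraries overlapped with each hairpin. SMAD6 fell by 1.23 ± 0.16 in shNTC cells, against -0.21 ± 0.10 in shCDC73 cells, a difference of 1.02 ± 0.19 (edgeR adjusted p = 0.00288). With hairpin 4 alone it fell by 0.48 (edgeR adjusted p = 0.0169). ZFP36L1 (ENSG00000185650), which speeds the decay of AU-rich messages, fell by 0.98 ± 0.08 in shNTC cells and fell by 0.46 ± 0.05 in shCDC73 cells, a difference of 0.52 ± 0.09 (edgeR adjusted p = 0.00101). Its libraries lay at 399 to 435 CPM in EtOH and 197 to 227 CPM in Dox in shNTC cells.

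Other lost falls had calls that ended when 1 library was left out. LOXL2, a cross-linker of collagen, fell by 1.24 ± 0.18 in shNTC cells, against -0.24 ± 0.14 in shCDC73 cells (difference 1.00 ± 0.23, edgeR adjusted p = 0.0237), a call ended by 7 of the 24 libraries (largest adjusted p = 0.0865). CD44, the receptor of hyaluronan, fell by 0.51 ± 0.09, against 0.01 ± 0.07, and its difference of 0.52 ± 0.12 (edgeR adjusted p = 0.0225) ended without Dox shNTC replicate 3 (adjusted p = 0.0609), Dox shNTC replicate 4 (adjusted p = 0.0835), EtOH shNTC replicate 1 (adjusted p = 0.0511), EtOH shNTC replicate 3 (adjusted p = 0.0609) or EtOH shNTC replicate 4 (adjusted p = 0.0555). CD99L2, a surface glycoprotein, fell by 1.10 ± 0.19, against 0.08 ± 0.16, and its difference of 1.18 ± 0.25 (edgeR adjusted p = 0.0135) ended without Dox shNTC replicate 2 (adjusted p = 0.0630) or EtOH shNTC replicate 3 (adjusted p = 0.0589). The proteoglycan CSPG4 differed by 0.93 ± 0.22 and the membrane protease MMP14 by 0.69 ± 0.16, calls ended by 10 and 11 of the 24 libraries (largest adjusted p = 0.112 and 0.154). The surface protein ELFN1 differed by 1.11 ± 0.25 (edgeR adjusted p = 0.0251), a call ended by 6 libraries (largest adjusted p = 0.135). The lost falls also took in MBOAT7, which remodels membrane lipids, and OGDH, an enzyme of the citric acid cycle, with differences of 0.54 and 0.61 that ended in 14 and 15 of the 24 fits (largest adjusted p = 0.154 and 0.135).

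Falls that became smaller included CAV1, the coat protein of caveolae, which fell by 1.45 ± 0.10 in shNTC cells and fell by 0.87 ± 0.08 in shCDC73 cells (difference 0.58 ± 0.13, edgeR adjusted p = 0.0225). Its EtOH level was 168 to 188 CPM in shNTC cells, 47.4 to 59.9 CPM with hairpin 3 and 133 to 154 CPM with hairpin 4, so the fall started lower in the depleted cells. The call ended without Dox shCDC73 hairpin 3 replicate 4 (adjusted p = 0.0627), Dox shNTC replicate 2 (adjusted p = 0.0917), EtOH shNTC replicate 3 (adjusted p = 0.0548) or EtOH shNTC replicate 4 (adjusted p = 0.0850). GNAI2, an inhibitory G protein subunit, fell by 0.99 ± 0.12 and, with CDC73 hairpins, fell by 0.34 ± 0.08, and its difference of 0.65 ± 0.14 (edgeR adjusted p = 0.0175) ended without Dox shNTC replicate 4 (adjusted p = 0.0600). LMO4, a LIM domain adaptor, fell by 1.23 ± 0.16 and, with CDC73 hairpins, fell by 0.34 ± 0.12, and its difference of 0.90 ± 0.20 (edgeR adjusted p = 0.0176) ended without Dox shNTC replicate 2 (adjusted p = 0.0917), Dox shNTC replicate 4 (adjusted p = 0.0669) or EtOH shNTC replicate 1 (adjusted p = 0.0541). Integrin alpha 3 (ITGA3), the transglutaminase TGM2, the guidance factor SEMA3C, the membrane protein EMP1, the ERBB2-binding scaffold ERBIN, the collapsin mediator DPYSL2 and the collagen chaperone SERPINH1 had differences of 0.56, 0.47, 1.06, 0.55, 0.73, 0.89 and 0.44. Those 7 calls each ended in 14 to 21 of the 24 fits that left out 1 library.

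Over the list of matrix, TGF-beta and cytoskeleton genes, 3 of 48 tested were called (ITGA3 and LOXL2 among them), beside 0.470% of all genes tested. There 28 members fell with Dox in shNTC cells and 16 in shCDC73 cells (58.3% and 33.3%, beside 8.93% and 8.24% of all genes tested), and none rose in either. The list's median response was -0.43 in shNTC cells and -0.22 in shCDC73 cells, and its median difference was 0.19. Summed over the list, the level was 21083 to 21740.04 CPM in EtOH and 15657 to 16831 CPM in Dox in shNTC cells. With hairpin 3 it was 20938 to 22685 CPM and 18429 to 19964 CPM, and with hairpin 4 it was 23398 to 24864 CPM and 19399.7 to 20699 CPM. All 8 depleted libraries in Dox thus lay above the shNTC libraries in Dox. THBS1, for example, fell by 0.91 ± 0.13 in shNTC cells, against -0.23 ± 0.12 in shCDC73 cells, with a difference of 0.68 ± 0.18 that did not pass (edgeR adjusted p = 0.0670). On a list of 17 tested genes described as repressed by MYC, CAV1 was the one called, with a median response of -0.42 in shNTC cells and -0.24 in shCDC73 cells.

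**Figure D3:**
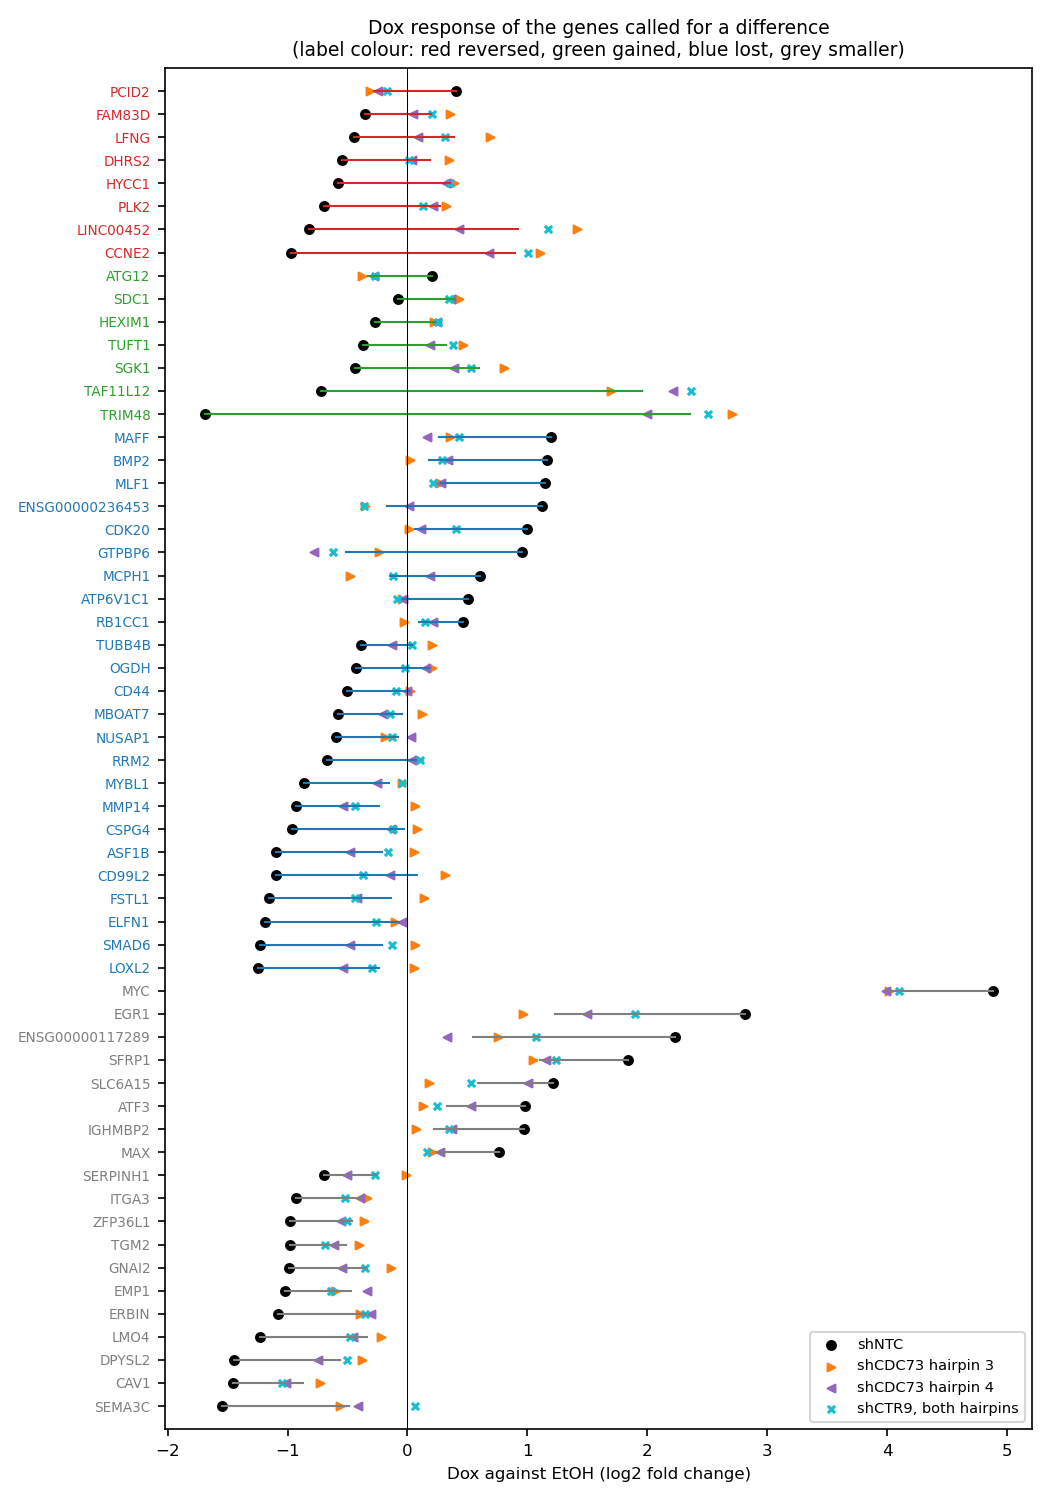
Dox response (log2 fold change, Dox against EtOH) of 58 of the 59 called genes, 1 per row, in shNTC cells (circles), with CDC73 hairpins 3 and 4 (triangles) and in shCTR9 cells averaged over 2 hairpins (crosses); the line runs from the shNTC value to the mean of the CDC73 hairpins. For all 58 the mean of the CDC73 hairpins lies toward 0 from the shNTC value or past it.

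For 6 of the 8 genes with a reversed response, the difference passed in every fit that left out 1 library. The reversal itself was less stable, since the number of reversed genes ran from 3 to 12 over fits that left out a library or a replicate number and was 0 with hairpin 4 alone. PLK2 (ENSG00000145632), a polo-like kinase induced by p53 and by stress, stood at 217, 211, 223 and 189.6 CPM in EtOH and 152, 136, 115 and 115 CPM in Dox in shNTC cells. The hairpin 3 libraries stood at 405, 418, 405 and 408 CPM and then 499, 556, 512 and 482 CPM, and those of hairpin 4 at 348, 396, 325 and 339 CPM and then 423, 434, 375 and 403 CPM. Every shNTC library in Dox lay below those in EtOH, every hairpin 3 library in Dox lay above those in EtOH, and the hairpin 4 libraries overlapped. PLK2 fell by 0.70 ± 0.09 in shNTC cells and rose by 0.27 ± 0.06 in shCDC73 cells, a difference of 0.97 ± 0.11 (edgeR adjusted p = 3.19e-08). With hairpin 4 alone the response of 0.22 did not pass (edgeR adjusted p = 0.0712). In Dox its level was 396% of that in shNTC cells with hairpin 3 and 316% with hairpin 4. PLK2 was the one call among 26 tested p53 targets, beside 0.470% of all genes tested. The median response of these targets was -0.19 in shNTC cells and -0.01 in shCDC73 cells.

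HYCC1 (ENSG00000122591), a component of a lipid kinase complex at the plasma membrane, stood at 81.9, 45.2, 57.8 and 64.6 CPM in EtOH and 38.8, 42.3, 41.1 and 44.1 CPM in Dox in shNTC cells. Cells with hairpin 3 had 65.2, 72.4, 83.9 and 75.4 CPM and then 97.8, 103, 94.8 and 93.02 CPM, and those with hairpin 4 had 56.4, 58.2, 52.9 and 58.4 CPM and then 73.98, 64.9, 71.4 and 72.4 CPM. The Dox libraries lay below the EtOH libraries in shNTC cells and above them with each hairpin. HYCC1 fell by 0.58 ± 0.14 in shNTC cells and rose by 0.35 ± 0.09 in shCDC73 cells (difference 0.93 ± 0.16, edgeR adjusted p = 8.72e-04). LINC00452 (ENSG00000229373), a long noncoding RNA, stood at 33.8, 47.5, 45.99 and 44.5 CPM and then 29.5, 26.9, 17.7 and 22.04 CPM in shNTC cells, at 58.9, 65.8, 60.7 and 71.97 CPM and then 142, 197, 157 and 189 CPM with hairpin 3, and at 26.02, 46.3, 31.1 and 30.3 CPM and then 40.8, 44.8, 53.8 and 44.9 CPM with hairpin 4. Its Dox level with hairpin 3 stood above all other groups. The responses were -0.82 ± 0.21 in shNTC cells, 1.41 with hairpin 3 and 0.43 with hairpin 4 (edgeR adjusted p = 0.137 for the last), and the difference was 1.75 ± 0.24 (edgeR adjusted p = 6.20e-06).

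DHRS2 (ENSG00000100867), a short-chain dehydrogenase, lay at 315 to 361 CPM in EtOH and 215 to 248 CPM in Dox in shNTC cells. With hairpin 3 it lay at 206 to 251 CPM and 282 to 313 CPM, and with hairpin 4 at 331 to 366 CPM and 324 to 385 CPM. It fell by 0.55 ± 0.08 in shNTC cells and rose by 0.19 ± 0.06 in shCDC73 cells, with a response of 0.34 from hairpin 3 and 0.04 from hairpin 4 (edgeR adjusted p = 0.801 for the last). The difference was 0.74 ± 0.10 (edgeR adjusted p = 5.40e-06) and each hairpin by itself passed. LFNG (ENSG00000106003), a glycosyltransferase that modifies Notch receptors, lay at 49.8 to 54.5 CPM and 32.7 to 43.9 CPM in shNTC cells, at 52.4 to 65.03 CPM and 76.99 to 106 CPM with hairpin 3, and at 76.3 to 96.4 CPM and 85.04 to 90.4 CPM with hairpin 4. It fell by 0.45 ± 0.13 in shNTC cells and rose by 0.39 ± 0.08 in shCDC73 cells (difference 0.84 ± 0.16, edgeR adjusted p = 0.00269), with hairpin 4 alone not passing (0.54, edgeR adjusted p = 0.264). PCID2, an mRNA export factor, was the one reversed gene that rose in shNTC cells, by 0.40 ± 0.13, and in shCDC73 cells it fell by 0.28 ± 0.09. Its difference of -0.68 ± 0.16 (edgeR adjusted p = 0.0251) ended without Dox shNTC replicate 2 (adjusted p = 0.0947), Dox shNTC replicate 3 (adjusted p = 0.0627), EtOH shNTC replicate 3 (adjusted p = 0.112) or EtOH shNTC replicate 4 (adjusted p = 0.0690).

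Lost or smaller rises concerned fewer genes. MCPH1 (ENSG00000147316), the chromosome condensation and damage response protein microcephalin, stood at 43.1, 34.5, 34.8 and 33.6 CPM in EtOH and 56.1, 48.8, 63.4 and 53.5 CPM in Dox in shNTC cells. Under hairpin 3 it stood at 96.4, 107, 115 and 108 CPM and then 73.96, 76.99, 74.1 and 80.9 CPM, and with hairpin 4 at 41.6, 47.00, 42.5 and 44.3 CPM and then 53.6, 54.9, 55.01 and 38.3 CPM. The Dox libraries lay above the EtOH libraries in shNTC cells and below them with hairpin 3, and with hairpin 4 they overlapped. The response was 0.60 ± 0.13 in shNTC cells, -0.48 with hairpin 3 and 0.19 with hairpin 4, and the difference over both hairpins was -0.75 ± 0.15 (edgeR adjusted p = 0.00971). With hairpin 4 alone it was -0.41 and did not pass (edgeR adjusted p = 0.426). ATP6V1C1 (ENSG00000155097), a subunit of the proton pump of lysosomes, stood at 155, 137, 135 and 124 CPM and then 179.7, 189.6, 203 and 209 CPM in shNTC cells, at 143, 136, 139 and 128 CPM and then 124, 139, 134 and 132 CPM with hairpin 3, and at 141, 119.96, 138 and 131 CPM and then 123, 115, 149.8 and 129.8 CPM with hairpin 4. The only group that stands apart is shNTC in Dox, above all the others. ATP6V1C1 rose by 0.50 ± 0.09 in shNTC cells, against -0.04 ± 0.07 in shCDC73 cells, and the difference was -0.54 ± 0.11 (edgeR adjusted p = 0.00788).

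IGHMBP2 (ENSG00000132740), a helicase linked to motor neuron disease, lay at 42.1 to 59.1 CPM in EtOH and 85.5 to 104 CPM in Dox in shNTC cells. With hairpin 3 it lay at 84.8 to 95.7 CPM and 90.4 to 99.98 CPM, and with hairpin 4 at 58.4 to 69.5 CPM and 75.8 to 92.5 CPM. It rose by 0.97 ± 0.12 in shNTC cells and by 0.22 ± 0.08 in shCDC73 cells, a difference of -0.75 ± 0.14 (edgeR adjusted p = 0.00236). MLF1, a shuttling adaptor first found in myeloid leukaemia, rose by 1.15 ± 0.15 in shNTC cells, against 0.28 ± 0.11, and its difference of -0.87 ± 0.19 (edgeR adjusted p = 0.0192) ended without EtOH shNTC replicate 3 (adjusted p = 0.0543) or EtOH shNTC replicate 4 (adjusted p = 0.0681). RB1CC1 (FIP200), which starts autophagy, rose by 0.47 ± 0.07 in shNTC cells, against 0.09 ± 0.05, with a difference of -0.37 ± 0.09 (edgeR adjusted p = 0.0411). The growth factor BMP2, the kinase CDK20, the Wnt antagonist SFRP1, the amino acid transporter SLC6A15 and the mitochondrial GTP-binding protein GTPBP6 had differences of -0.99, -0.93, -0.74, -0.62 and -1.47. The calls for RB1CC1 and these 5 genes ended in 10 to 19 of the 24 fits that left out 1 library. SFRP1 rose by 1.84 ± 0.14 in shNTC cells and by 1.10 ± 0.11 in shCDC73 cells. Genes for which no symbol was found were ENSG00000236453, with a lost rise and a difference of -1.30, and ENSG00000117289, with a smaller rise and a difference of -1.69. Their calls ended in 12 and 6 of those fits.

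Gained responses were seen for 7 genes, and each of these calls ended when 1 or more libraries were left out. HEXIM1, which holds the elongation kinase P-TEFb inactive, stood at 75.1, 70.5, 75.6 and 62.9 CPM in EtOH and 63.3, 61.04, 46.7 and 62.97 CPM in Dox in shNTC cells. Hairpin 3 cells showed 346, 419.5, 425 and 412 CPM and then 523, 462, 448 and 431 CPM, and with hairpin 4 at 204, 208, 193 and 219 CPM and then 234, 255, 261 and 231 CPM. Loss of CDC73 raised it above every shNTC library in both treatments, by 2.01 ± 0.09 in EtOH and 2.52 ± 0.09 in Dox (edgeR adjusted p = 9.37e-25 and 4.34e-28), and Dox raised it further by 0.23 ± 0.06 with the CDC73 hairpins. In shNTC cells the response was -0.27 ± 0.11 (edgeR adjusted p = 0.0771). The difference of 0.51 ± 0.12 (edgeR adjusted p = 0.0390) ended in 12 of the 24 fits that left out 1 library (largest adjusted p = 0.172), in DESeq2 and with only the 24 libraries. HEXIM1 was the one call among 33 tested elongation factors, beside 0.470% of all genes tested. The median response of these factors was 0.04 in shNTC cells and 0.02 in shCDC73 cells.

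SGK1, a kinase induced by serum and glucocorticoids, stood at 27.9, 22.97, 11.2 and 19.3 CPM and then 15.1, 14.6, 13.1 and 15.7 CPM in shNTC cells, at 90.2, 93.2, 101 and 114 CPM and then 193, 186, 163 and 152 CPM with hairpin 3, and at 83.3, 50.5, 49.8 and 48.8 CPM and then 79.1, 74.98, 70.2 and 78.2 CPM with hairpin 4. It rose by 0.60 ± 0.10 in shCDC73 cells, against -0.44 ± 0.23 in shNTC cells (edgeR adjusted p = 0.209 for the latter), and the call ended in 18 of the 24 fits (largest adjusted p = 0.192). The syndecan SDC1, a surface proteoglycan, rose by 0.39 ± 0.07 in shCDC73 cells and the enamel protein TUFT1 by 0.32 ± 0.09, with calls that each ended in 19 of the 24 fits. ATG12, a ubiquitin-like protein of autophagy, was the one gene with a gained fall, at -0.33 ± 0.06 against 0.21 ± 0.10 (difference -0.54 ± 0.12, edgeR adjusted p = 0.0166), and this ended without Dox shNTC replicate 1 (adjusted p = 0.0544), EtOH shNTC replicate 2 (adjusted p = 0.0516) or EtOH shNTC replicate 3 (adjusted p = 0.0640).

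TRIM48 and TAF11L12, members of multicopy families whose reads may be shared between near-identical copies, had the largest gained rises. TRIM48 was at 0 in Dox shNTC replicates 1, 2 and 4, at 1.87 CPM in replicate 3, and at 1.69, 0.766, 1.31 and 2.52 CPM in EtOH. In Dox it stood at 17.3, 9.52, 10.9 and 7.82 CPM with hairpin 3 and 17.9, 14.7, 12.9 and 14.1 CPM with hairpin 4, above 0.749 to 2.60 CPM and 1.40 to 5.91 CPM in EtOH. It rose by 2.35 ± 0.29 in shCDC73 cells, and the shNTC response rests on a few counts per library. TAF11L12 stood at 2.53, 4.59, 3.29 and 1.68 CPM and then 0.719, 1.63, 4.67 and 0.787 CPM in shNTC cells, and reached 19.7, 21.6, 16.3 and 15.6 CPM with hairpin 3 and 28.1, 30.9, 36.3 and 24.97 CPM with hairpin 4 in Dox, from 3.47 to 7.14 CPM and 4.91 to 8.87 CPM in EtOH. Its rise in shCDC73 cells was 1.96 ± 0.20 (edgeR adjusted p = 9.69e-11), and its call for the difference ended without Dox shNTC replicate 1 (adjusted p = 0.0544), Dox shNTC replicate 4 (adjusted p = 0.0546), EtOH shNTC replicate 2 (adjusted p = 0.101) or EtOH shNTC replicate 3 (adjusted p = 0.0640). The call for TRIM48 ended in 7 of the 24 fits (largest adjusted p = 0.171), in DESeq2 and with only the 24 libraries. TRIM48 belongs to a family expressed in the cleavage-stage embryo. A list of 30 genes of that stage, TRIM48 among them, drawn up with results of these data known, summed to 45.3 to 59.9 CPM in EtOH and 42.5 to 61.8 CPM in Dox in shNTC cells, which overlap. With hairpin 3 it summed to 159 to 179 CPM in EtOH and 299.9 to 368 CPM in Dox, and with hairpin 4 to 90.9 to 113 CPM and 255 to 309.97 CPM, with no overlap between treatments. Of its 16 tested members, 1 was called for the difference, beside 0.470% of all genes tested. All 16 rose in shCDC73 cells (median 2.25) and also in shCTR9 cells, depleted of another PAF1 subunit (median 2.59). In shNTC cells 1 rose (median 0.14). Drawn up with these results known, the list is no separate test of them. The low-count filter also keeps genes with enough counts in a single group. Among the 24 libraries TRIM48 reached 7.82 CPM only in depleted cells in Dox. Members may thus have been tested because they are high there, so nothing is read from how many rose or from their medians.

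The levels in EtOH and in Dox show where each response starts and ends. Among the 59 genes the level differed between shCDC73 and shNTC cells in EtOH only for 14, in Dox only for 12 and in both for 33, of which 24 had the same sign. Over all genes tested, 49.0% differed in EtOH and 44.9% in Dox, so a difference of level was common. The difference that chose the 59 equals the change of level in Dox minus that in EtOH. A called gene therefore nearly has to differ in level in one treatment or the other, and the counts here only describe the called genes. Among the 25 lost responses, 9 differed in EtOH only (as MCPH1 did), 6 in Dox only (as ATP6V1C1, MYBL1 and SMAD6 did) and 10 in both. For all 7 gained responses the level differed in Dox, and for 6 of them also in EtOH.

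**Figure D4:**
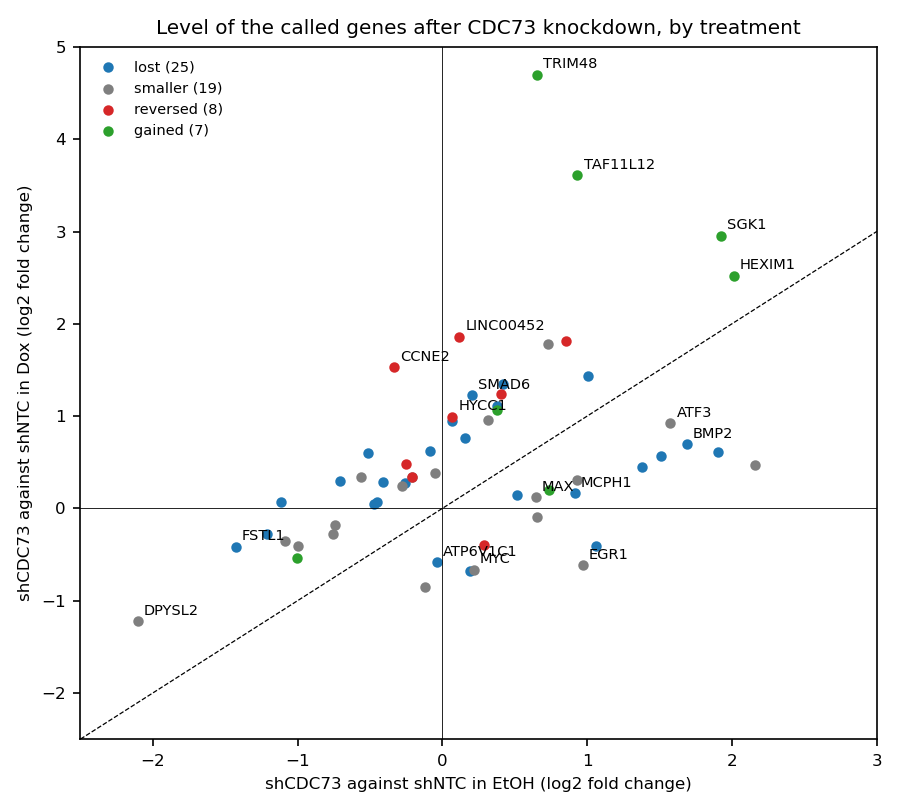
Level of each of the 59 called genes in shCDC73 against shNTC cells (log2 fold change), in EtOH on the horizontal axis and in Dox on the vertical axis, coloured by class of response. Points above the dashed line of equality have a positive difference of response, such as SGK1 and HEXIM1, which lie high on both axes, and points below it a negative one, such as EGR1, which is higher in EtOH and lower in Dox.

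Ribosome production, the best known of the programmes that MYC drives, had no called member. Of 55 tested ribosome biogenesis genes 0 were called by edgeR, while 34 rose with Dox in shNTC cells and 30 in shCDC73 cells, 61.8% and 54.5% beside 8.49% and 9.29% of all genes. Their median response was 0.39 in shNTC cells and 0.25 in shCDC73 cells, and the median difference was -0.10. Summed over that list, the level was 11353 to 12016 CPM in EtOH and 14479 to 15040.1 CPM in Dox in shNTC cells, 11801 to 12050.4 CPM and 13952 to 14599 CPM with hairpin 3, and 11548 to 12865 CPM and 13913 to 14324 CPM with hairpin 4. Mitochondrial ribosomal proteins had a median response of 0.17 in shNTC cells, 0.13 with hairpin 3 and -0.14 with hairpin 4, and 0 of 38 were called. Their mRNAs are short, and in EtOH the hairpin 4 libraries summed to 2601 to 4410.4 CPM for this list, with the pair rich in short transcripts among them, whose part in that value was not tested. In the same way the cytoplasmic ribosomal proteins had a median response of -0.05 in shNTC cells, 0.16 with hairpin 3 and -0.46 with hairpin 4, with 0 of 56 called. Heat shock genes had a higher median in shCDC73 cells (0.22) than in shNTC cells (0.08), with 11 against 4 of 20 rising. SERPINH1 alone of the 20 was called, beside 0.470% of all genes tested. Among the 6 tested subunits of the PAF1 complex, 0 were called and 0 responded to Dox in either kind of cell.

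**Figure D5:**
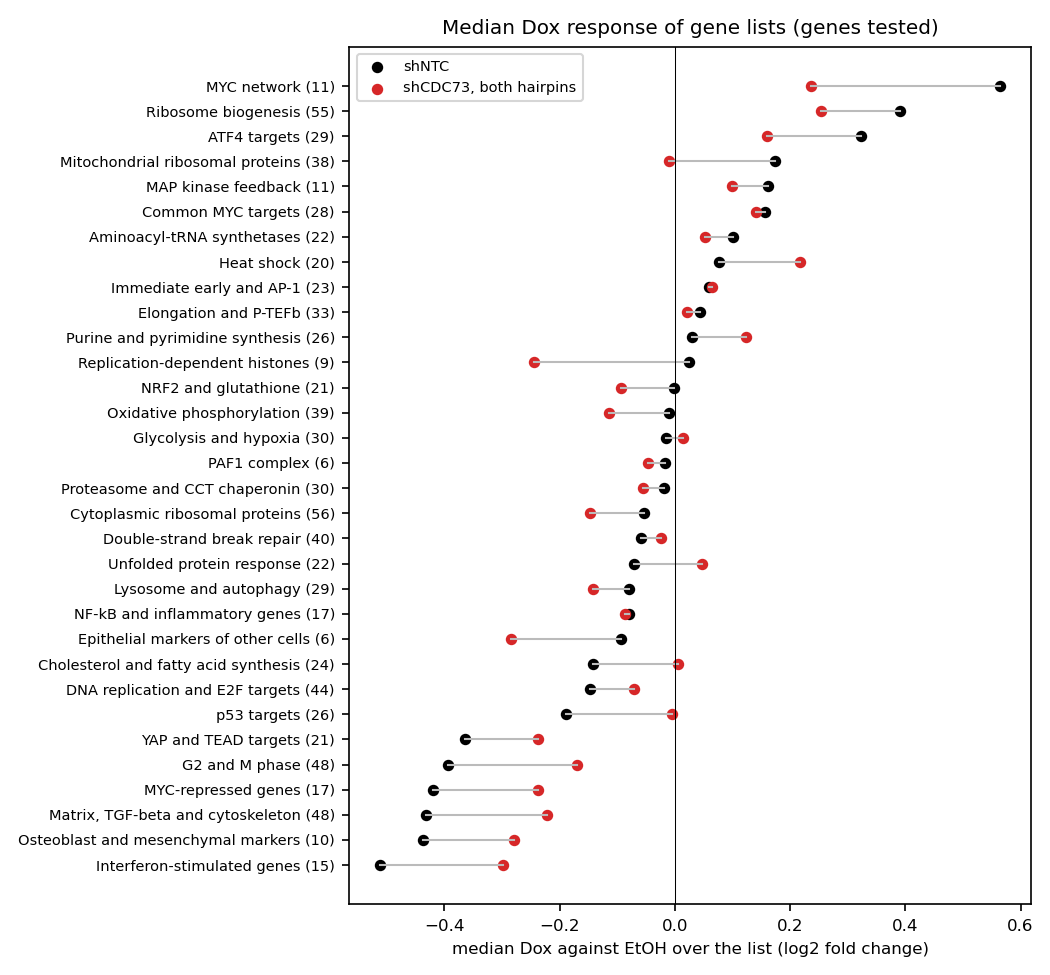
Median Dox response (log2 fold change, Dox against EtOH) over the tested members of each gene list in shNTC cells (black) and in shCDC73 cells (red), with the number of genes tested in brackets. The lists of G2 and M phase, matrix and MYC-repressed genes lie below 0 with a value nearer 0 in shCDC73 cells, and ribosome biogenesis lies above 0 with a smaller value there.

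The breadth of the change beyond the called genes was described with genes chosen elsewhere. The shCTR9 cells, depleted of another PAF1 subunit, share no library with either response, but they are the condition most like shCDC73 cells, so genes chosen by their Dox response there may favour the shCDC73 response. Of 12557 genes, 1167 (9.29%) rose with Dox in shCTR9 cells, and their median response was 0.42 in shNTC cells, 0.34 with CDC73 hairpin 3 and 0.46 with hairpin 4. Of these 1167, 571 passed in shNTC cells and 778 in shCDC73 cells, and the difference was called negative for 10 and positive for 11. Another 1137 (9.05%) fell, with medians of -0.41 in shNTC cells, -0.30 with hairpin 3 and -0.42 with hairpin 4. Of these, 526 passed in shNTC cells and 657 in shCDC73 cells, and the difference was called positive for 13 and negative for 2. The difference, called or not, was negative for 56.4% of the first set and positive for 57.7% of the second. Without the pair rich in short transcripts, the median rise over both hairpins was 0.34 in place of 0.39.

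The hairpins differed in how many genes they called alone. Hairpin 3 alone against shNTC called 81 genes (0.645%), of which 44 are among the 59, and hairpin 4 alone called 10 (0.0796%), all among the 59. Among the 59 the size of the difference was larger with hairpin 3 for 48, with a median size of 0.89 against 0.66 with hairpin 4. Tested directly, hairpin 4 against hairpin 3, the difference of response passed for 0 genes in edgeR (smallest adjusted p = 0.0609), for 1869 at an unadjusted p under 0.05 (14.9%), and for 3 in DESeq2. Without the pair rich in short transcripts, both of hairpin 4, 0 were called and 674 of 13039 genes (5.17%) had an unadjusted p under 0.05. That number was 1057 without EtOH shCDC73 hairpin 4 replicate 3, 2806 without replicate 2 of that group and 1222 without Dox shCDC73 hairpin 3 replicate 1. The count of calls was 49 without EtOH shCDC73 hairpin 4 replicate 2 and 6 without replicate 4 of the same group, so whether the hairpins differ rests on single libraries. The level of CDC73 in Dox was also lower with hairpin 3 (6.58 ± 2.56 CPM, SD, n = 4) than with hairpin 4 (9.57 ± 4.24 CPM), within the spread of the libraries, whereas MYC in Dox was lower with hairpin 4.

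Against the depletion of CTR9, the most like condition, 0 genes were called. The Dox response of shCDC73 cells minus that of shCTR9 cells passed for 0 genes in edgeR (smallest adjusted p = 1.00), with 436 (3.47%) at an unadjusted p under 0.05 by edgeR and 310 by DESeq2, which also called 0. Without the pair rich in short transcripts 0 were called and 1139 of 13039 genes (8.74%) had an unadjusted p under 0.05, so this test does not show that the responses were alike. EtOH shCTR9 hairpin 3 replicate 1, with a like slope of -0.156 on transcript length, stayed in that fit. The fit is thus unbalanced, with such libraries taken out on the shCDC73 side only. With all libraries, 6 of the 59 genes had an unadjusted p under 0.05 for shCDC73 minus shCTR9, and the median size of that difference over the 59 was 0.11. In shCTR9 cells 7 of the 25 genes with a lost response passed, against 18.3% of all genes tested, as did all 7 with a gained response and 5 of 8 with a reversed one, the last 12 in the direction seen with CDC73 hairpins. MYC rose by 4.09 ± 0.06 in shCTR9 cells, EGR1 by 1.90 ± 0.14 and LINC00452 by 1.17 ± 0.12. RRM2 changed by 0.10 ± 0.05 there (edgeR adjusted p = 0.192) and PLK2 by 0.13 ± 0.06 (edgeR adjusted p = 0.116), so neither passed in either direction. The shNTC libraries that chose the 59 genes enter neither the shCTR9 response nor its difference from the shCDC73 response. The shCDC73 libraries chose those genes as well and do enter that difference, so its values over the 59 are not free of the choice.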

How the data were processed

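The deposited values are raw read counts per Ensembl gene. Bowtie, HISAT2 and edgeR are named in the submitters' processing notes, with build hg19, their order and versions not given in the sources used here, as are strand and the counting tool; reads of overlapping or antisense genes therefore cannot be told apart. The file lists 63545 entries, of which 393 without reads were dropped, and symbols were matched for 39560 genes.

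Counts were filtered by edgeR 4.0.16 (R 4.3.3), scaled by TMM and fitted as 10 group means over all 40 libraries with the robust quasi-likelihood test. The 16 shCTR9 libraries enter as the source of a shared spread. The computing steps were tested on simulated data with known differences of response. The test recovered 15 of 66 differences of 1.5-fold, 41 of 66 of 2-fold and 62 of 65 of 4-fold. It called 3 of 12073 unchanged genes. Smaller differences can therefore be missed, and a gene not called is not shown to respond alike. Symbols came from the reference gene tables, and chromosomes and promoters from RefSeq.

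The genes named by rule were MYC, the PAF1 subunits, the 12 largest differences in each direction, the 5 smallest p-values in each class (all at 2 CPM or more) and the 3 smallest in each list; the remaining called genes are named as members. 1 called gene is counted but not reported here. The members and the 34 lists were chosen with earlier results of these data known. Alternatives were RLE scaling, DESeq2 1.42.0, other filters, only the 24 libraries, a replicate block, library subsets and each hairpin alone.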

Additional observations from a re-analysis of the deposited data

Results flagged for a closer look

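The Dox response differed between shCDC73 and shNTC cells for 59 genes, by a test of the difference itself, and they are described in the report. Among 348 groups of 4 libraries, with 6 such groups for each of 58 called genes, 22 held a library whose gap to the nearest other passed the 95% critical value of Dixon's test, a share close to the 1 in 20 that chance gives.

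In shNTC cells, the library that stood apart was Dox replicate 3 for CSPG4 (63.4 CPM), HEXIM1 (46.7 CPM), SLC6A15 (102 CPM) and TRIM48 (1.87 CPM, with the others at 0). It was Dox replicate 4 for BMP2 (21.3 CPM), and EtOH replicate 1 for MCPH1 (43.1 CPM), SERPINH1 (299 CPM) and TUFT1 (81.0 CPM). With CDC73 hairpin 3 it was EtOH replicate 2 for CD44 (245 CPM), ENSG00000117289 (14.98 CPM) and SEMA3C (39.1 CPM), and EtOH replicate 1 for HEXIM1 (346 CPM). In Dox with that hairpin it was replicate 2 for SFRP1 (56.2 CPM) and replicate 3 for MBOAT7 (224 CPM). With hairpin 4 it was EtOH replicate 1, of the pair rich in short transcripts, for MBOAT7 (170.0 CPM), SGK1 (83.3 CPM) and SMAD6 (67.7 CPM). In EtOH replicate 4 of that hairpin it was RB1CC1 (311 CPM) and SEMA3C (51.0 CPM). In Dox with hairpin 4 it was replicate 1 for CDK20 (38.3 CPM) and LFNG (85.0 CPM) and replicate 4 for MCPH1 (38.3 CPM). The calls for LFNG, MCPH1 and SMAD6 held in every fit that left out 1 library.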

How the results depend on the processing

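The directions of all 59 differences held in every setting, but each setting reused libraries that chose the genes. The count of calls did not hold. Called genes numbered 27 with only the 24 libraries, 2 with letter A libraries, 7 with letter B libraries (letters in the deposited names, A for replicates 1 and 2 and B for 3 and 4, of a meaning not given in the sources used here), 10 with hairpin 4 alone and 93 with a replicate block, which kept all 59. Replicate numbers were not taken to pair the libraries: deviations of 60 same-numbered pairs correlated at -0.131 to 0.303, and 15 of 24 libraries correlated best with their own number. The first 3 settings hold fewer libraries. Hairpin 3 alone rests on as many libraries as hairpin 4 alone and called 81, and the cause of that gap was not tested. In that order (24 libraries, letter A, letter B, hairpin 4, replicate block), positive differences numbered 19, 0, 6, 7 and 62, and negative ones 8, 2, 1, 3 and 31. Lost responses numbered 12, 0, 2, 6 and 44, and gained ones 2, 0, 1, 1 and 11. Levels that passed numbered 20, 1, 5, 9 and 75 in EtOH and 21, 2, 5, 8 and 69 in Dox. Smaller responses numbered 6, 2, 1 and 3 in the first 4. Reversed ones numbered 5 without a low-count filter, 0 with letter A, 3 with letter B and 0 with hairpin 4. Hairpin 3 alone gave 33 negative differences, 50 lost, 13 gained, 9 smaller and 1 larger. A larger response was called for 1 gene without the pair rich in short transcripts and for 1 in DESeq2.

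Between the hairpins 134 genes were called without a low-count filter, 22 with the replicate block and 3 in DESeq2. For the genes that rose in shCTR9 cells, the shNTC median was 0.48 without a filter, 0.63 with letter A and 0.60 with letter B. Their shCDC73 median was 0.44, 0.58 and 0.61 in those settings, 0.34 without the pair and 0.46 with hairpin 4. For the genes that fell, the shNTC median was -0.54 with letter A and -0.55 with letter B, and the shCDC73 median was -0.49, -0.45 and, with hairpin 4, -0.42.

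Over the 28 fits that left out a library or a replicate number, called genes ran from 10 to 76, positive differences from 8 to 51 and negative ones from 2 to 25. Lost responses ran from 4 to 39, gained from 0 to 9, reversed from 3 to 12, and smaller from 2 to 17. Levels that passed ran from 6 to 60 in EtOH and from 10 to 57 in Dox. Calls between hairpins ran from 0 to 49, and 0 were called between shCDC73 and shCTR9 in all 28. The medians ran from 0.42 to 0.50 and from 0.36 to 0.47 for rises and from -0.46 to -0.40 and from -0.41 to -0.33 for falls. With RLE scaling 58 genes were called and with DESeq2 58, of which 50 were among the 59. At 877323 to 1532617 counts per library, genes under 3.42 CPM rest on fewer than 3 reads in the shallowest.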

Other observations

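The called genes were unevenly spread over the chromosomes. Of 57 with a known chromosome, 9 lie on chromosome 8 (15.8%, beside 3.85% of genes tested), 5 of them with a negative difference, and 7 on chromosome 7 (12.3%, beside 4.71%), with 0 negative. MYC, MCPH1, ATP6V1C1 and RB1CC1 are among those on chromosome 8. This is a description chosen after the values were seen, with no test.

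Gene length did not set the called genes apart in these values. The median length was 33.3 kb for called genes with a positive difference, 36.7 kb for those with a negative one and 30.9 kb for all genes tested.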
